A study of Homo sapiens with 4 samples.

Results

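The genes described here encode 8 enzymes of proline synthesis, glutamine breakdown and branched-chain amino acid use: PYCR1, PYCR3, ALDH18A1, GLUD1, BCAT1, BCAT2, BCKDHA and BCKDK. They were found by symbol among the 28814 genes of a count table from 697 cells, a human cell line established from B-cell precursor leukaemia. The tested cells had been kept for 24 h with 1 µM MZ1, a degrader that brings BET bromodomain proteins to the VHL ubiquitin ligase, and the others for the same time with an equal volume of its solvent, DMSO. Each group had 2 RNA-seq libraries of this 1 line, with 14544789 and 14246367 counted reads with MZ1 and 16005427 and 16488005 with DMSO. The comparison asks how transcripts of these enzymes stood after a day with the degrader. The 8 genes were chosen with their difference between MZ1 and DMSO already known, so their values in that contrast are given as a description, without p-values.

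Proline is made from glutamate. ALDH18A1 activates and reduces glutamate to a semialdehyde that closes to pyrroline-5-carboxylate, and the reductases PYCR1 in mitochondria and PYCR3 in the cytosol turn this into proline. Glutamine feeds the same pool of glutamate, and GLUD1, glutamate dehydrogenase, converts glutamate to 2-oxoglutarate in mitochondria. Leucine, isoleucine and valine are first transaminated, by BCAT1 in the cytosol or BCAT2 in mitochondria, which passes their nitrogen to glutamate. The resulting ketoacids are oxidised by the branched-chain ketoacid dehydrogenase, in which BCKDHA is the alpha subunit of the decarboxylase, and the kinase BCKDK switches that enzyme off by phosphorylating BCKDHA.

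Because expression of several members was lower with MZ1 together, their start regions were read from the RefSeq promoter table (GRCh38.p14, 250 bases before to 50 after each start). In it 5 of the 8 genes matched: GLUD1, ALDH18A1, BCAT1, BCKDK and BCKDHA. A search of both strands was made for CACGTG, the E-box that MYC and related factors are known to bind, and for TGATGNAA, the form of the response element known to be bound by ATF4 with a C/EBP partner. The windows do not show which start the cells used. Below are the bases before the start of both genes with a match, shown 5′ to 3′ on the minus strand with the match in capitals, from chr10:95656712-95656961 and chr12:24949102-24949351.
ALDH18A1: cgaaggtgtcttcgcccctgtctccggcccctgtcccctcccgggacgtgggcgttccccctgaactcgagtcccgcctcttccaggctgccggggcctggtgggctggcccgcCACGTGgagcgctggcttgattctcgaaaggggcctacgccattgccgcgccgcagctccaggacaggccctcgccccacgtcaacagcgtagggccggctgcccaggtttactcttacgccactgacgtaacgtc
BCAT1: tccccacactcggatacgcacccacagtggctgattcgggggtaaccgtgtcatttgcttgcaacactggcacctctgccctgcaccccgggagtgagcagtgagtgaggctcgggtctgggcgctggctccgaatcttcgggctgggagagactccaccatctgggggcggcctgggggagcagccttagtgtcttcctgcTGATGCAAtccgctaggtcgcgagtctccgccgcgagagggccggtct
The ALDH18A1 match was CACGTG, beginning 136 bases before the start. The BCAT1 match shown was TGATGCAA, beginning 48 bases before the start, and the same BCAT1 window held CACGTG beginning 14 bases after its first transcribed base. The other 4 BCAT1 windows and those of GLUD1, BCKDK and BCKDHA held neither set of letters. The BCKDK window was set on a start at 31108386, inside the annotated gene, which begins at 31106107. The BCAT1 windows with starts at 24903067, 24902900 and 24902222 lay well inside that gene, whose first annotated base is 24949459. Of all 35116 windows in the table, 7.26% held CACGTG and 3.62% held TGATGNAA. These shares are per window, whereas BCAT1 had several windows in which to match. A match is a description of the letters and not a binding site.

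Levels within a gene are given as TMM-normalised CPM (counts scaled to library size), and log2 fold changes are MZ1 over DMSO from edgeR's model of all tested genes, with their standard error (SE). The labels name no spike-in, so each level is relative to the rest of its library. In these bulk samples, fewer cells of a type and less RNA per cell cannot be told apart. All 9 listed markers of B-cell precursors were measured in each library. Their summed level was 978 and 1017 CPM of library total with MZ1, against 2628 and 2671 with DMSO, so the lineage markers were lower in the same libraries as the enzymes. Of the 5 myeloid markers all had counts, summing to 27.5 and 24.2 CPM with MZ1 and 6.81 and 5.46 with DMSO, where MPO was at 0. CSF1R went against the sum, with 14 and 12 counts with MZ1 and 92 and 79 with DMSO, whereas CD14, LYZ, MPO and ITGAM were higher with MZ1. Of the 4 erythroid markers 3 had counts, summing to 3.51 and 2.67 CPM with MZ1 and 0.125 and 0.485 with DMSO, where HBA1 was among those at 0. The part of these shifts in the enzyme values was not tested. Among 16862 tested genes, 84.2% were called at an adjusted p below 0.05, with 41.3% of tested genes lower with MZ1 and 42.8% higher, so a call by itself sets no gene apart.

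Of the 8 genes 7 passed the count filter, and all 7 were lower with MZ1. That count stands beside a background of 41.3% called lower among all tested genes, and nothing is read from it, because the genes were chosen on this contrast. With TMM scaling all 7 were at least 2-fold lower, against 26.2% of tested genes called and at least 2-fold lower. With upper-quartile scaling BCAT2 was at −0.97 on the log2 scale, less than 2-fold lower. The 7 log2 fold changes ran between −6.65 and −1.24 with a median of −2.0, where the median over all tested genes was 0.05. In each of the 7 genes both MZ1 libraries lay below both DMSO libraries, as was true of 44.7% of tested genes, while the reverse held for 46.6% of tested genes and none of the 7. The smallest of the 7 differences was that of BCAT2. BCKDHA did not pass the filter and is described by its counts.

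**Figure D1:**
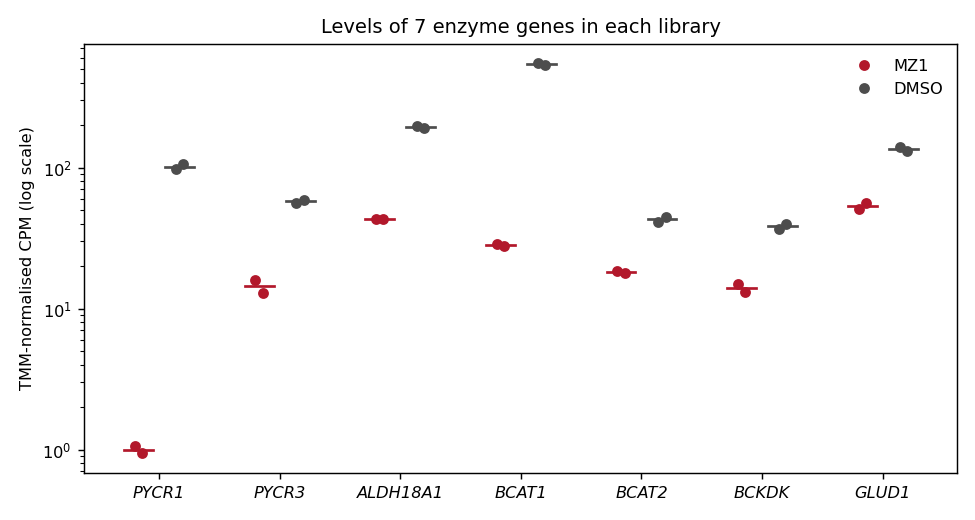
TMM-normalised CPM on a log axis for the 7 tested enzyme genes, with 1 point per library and a line at each group mean, MZ1 left of DMSO. The MZ1 points lie below the DMSO points in every gene, and the gap is widest for PYCR1, at 1.06 and 0.94 CPM with MZ1 against 97.1 and 106 CPM with DMSO.

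In proline synthesis, PYCR1 showed the largest difference of the 7 genes. PYCR1 (ENSG00000183010, chromosome 17, 81932384 to 81942412, minus strand, GRCh38) had 1.06 and 0.94 CPM with MZ1, against 97.1 and 106 CPM with DMSO. Both MZ1 libraries were near the bottom of the measured range, with 15 and 13 counts against 1589 and 1798 counts with DMSO. The log2 fold change was −6.65 ± 0.13 (SE), or 101-fold lower, and 0.498% of tested genes had a lower one. The ratio of summed counts was 0.00933, with an exact 95% interval of 0.00619 to 0.0135 that covers counting error only. By annotation 29.7% of the exonic length of PYCR1 is shared with other genes. The antisense gene AC145207.4, on the opposite strand, takes in 15.6% of the exonic length, and its counts are not given here. MYADML2, on the same strand, takes in 14.1% and had 6 and 4 counts with MZ1 and 3 and 2 with DMSO. The part of these overlaps in the PYCR1 counts was not tested.

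ALDH18A1 (ENSG00000059573, chromosome 10, 95605929 to 95656706, minus strand), which makes the substrate of the PYCR reductases, had 42.9 and 43.1 CPM with MZ1, against 196 and 192 CPM with DMSO. The MZ1 libraries were close to each other and far from the DMSO libraries. Its log2 fold change was −2.17 ± 0.05, or 4.498-fold lower. PYCR3 (ENSG00000104524, chromosome 8, 143603913 to 143609773, minus strand), the cytosolic reductase, had 15.9 and 12.8 CPM with MZ1, against 56.3 and 58.7 CPM with DMSO. The MZ1 libraries of PYCR3 differed more from each other, for their level, than those of ALDH18A1. The log2 fold change was −2.0 ± 0.09, or 4.002-fold lower. No exon of either gene is shared with another annotated gene.

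In glutamate oxidation, GLUD1 (ENSG00000148672, chromosome 10, 87050486 to 87094866, minus strand) had 50.9 and 56.0 CPM with MZ1, against 140 and 131 CPM with DMSO. The groups did not overlap, and the log2 fold change was −1.34 ± 0.06, or 2.53-fold lower. GLUD1 has copies in the genome, which can share or lose reads. Its coding sequence is 97.6% identical to that of GLUD2, an intronless copy on chromosome X, over 1674 aligned bases. GLUD2 had 3 and 3 counts with MZ1 and 7 and 10 with DMSO, and was not tested. The pseudogene GLUD1P3 (chromosome 10, 73730562 to 73737311), named here after its values were seen, was higher instead, at 6.97 ± 0.45 CPM with MZ1 and 3.78 ± 0.42 CPM with DMSO (SD, n = 2 each), a log2 fold change of 0.88 ± 0.21 (edgeR adjusted p = 0.000437). The counts of GLUD2 are small beside those of GLUD1. GLUD1P3 had 103 and 92 counts against 719 and 775 for GLUD1 with MZ1, and 57 and 69 against 2290 and 2219 with DMSO. Its counts were thus a larger part beside GLUD1 with MZ1 than with DMSO. The identity of GLUD1P3 to GLUD1 was not computed, and an exchange of reads between them was not tested. GLUD1 also shares 13.2% of its exonic length with SHLD2 on the opposite strand.

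Among the transaminases, BCAT1, known for high expression in several leukaemias, had the larger difference. BCAT1 (ENSG00000060982, chromosome 12, 24810022 to 24949459, minus strand) had 28.8 and 27.6 CPM with MZ1, against 547 and 535 CPM with DMSO. This was a log2 fold change of −4.26 ± 0.05, or 19.2-fold lower, and 1.97% of tested genes had a lower one. These levels come from 407 and 382 counts with MZ1 and 8948 and 9064 with DMSO. BCAT2 (ENSG00000105552, chromosome 19, 48795062 to 48811029, minus strand), the mitochondrial form, had 18.4 and 17.9 CPM with MZ1, against 41.4 and 44.4 CPM with DMSO. Its groups were apart too, by a log2 fold change of −1.24 ± 0.09, or 2.37-fold lower. The coding sequences of BCAT1 and BCAT2 are 62.5% identical over 1165 aligned bases, against 68.9% for PYCR1 and PYCR3.

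At the ketoacid dehydrogenase step, BCKDK (ENSG00000103507, chromosome 16, 31106107 to 31112791, plus strand), the kinase that holds the complex inactive, had 14.9 and 13.1 CPM with MZ1, against 36.6 and 39.9 CPM with DMSO. The log2 fold change was −1.45 ± 0.10, or 2.73-fold lower, with the MZ1 libraries below both DMSO libraries. BCKDHA (ENSG00000248098, chromosome 19, 41397460 to 41425005, plus strand), the subunit that BCKDK phosphorylates, had 2 and 2 counts with MZ1, against 3 and 1 counts with DMSO. The ratio of summed counts was 1.13 with an exact 95% interval of 0.21 to 6.06. The interval covers counting error only and leaves out the spread between libraries, and already at that width no difference was detectable at these counts. By annotation 63.8% of the exonic length of BCKDHA lies in exons of AC011462.1, a protein-coding annotation on the same strand that is not analysed here. The low counts therefore do not give the level of BCKDHA RNA, and the part of this overlap in them was not tested.

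**Figure D2:**
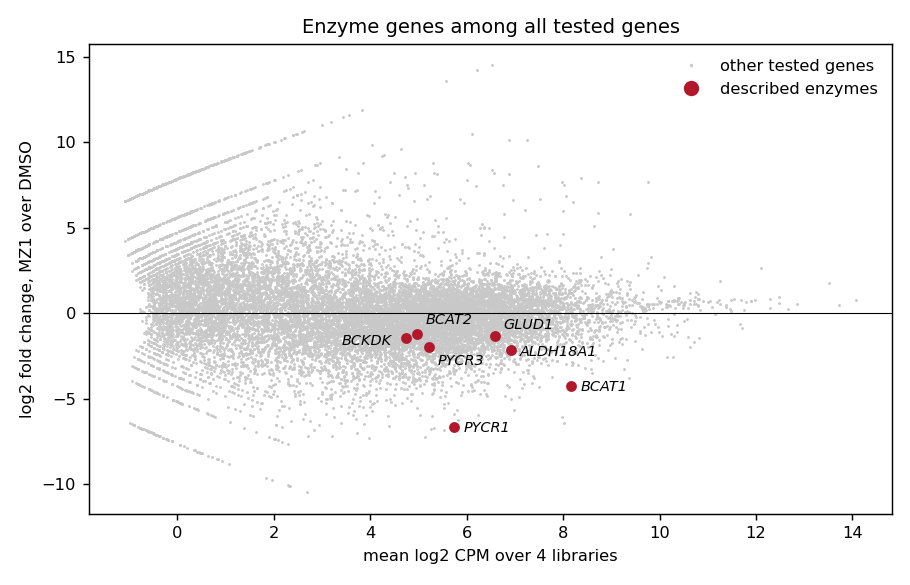
Log2 fold change (MZ1 over DMSO) against mean log2 CPM over the 4 libraries for 16862 tested genes in grey, with the 7 tested enzyme genes in red. PYCR1 at −6.65 and BCAT1 at −4.26 lie below most of the cloud, where 0.498% and 1.97% of tested genes had a lower value, and BCAT2 at −1.24, GLUD1 at −1.34 and BCKDK at −1.45 lie within it.

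Levels can be set beside each other between genes only per length, so counts were divided by the length of the union of exons and scaled to the same total in each library (TPM-like units). On this scale the order with MZ1, highest first, was GLUD1 at 41.7 ± 2.5, ALDH18A1 at 31.4 ± 0.13, PYCR3 at 12.2 ± 2.0, BCAT2 at 10.9 ± 0.31, BCKDK at 9.94 ± 1.0, BCAT1 at 6.58 ± 0.24 and PYCR1 at 0.953 ± 0.089 (SD, n = 2). The libraries of PYCR3 overlapped those of BCAT2 and, nearly, those of BCKDK, so the order of these 3 genes is not fixed by the data. With DMSO the order was ALDH18A1 at 177 ± 0.32, BCAT1 at 158 ± 0.27, GLUD1 at 133 ± 4.4, PYCR1 at 121 ± 9.3, PYCR3 at 61.1 ± 2.6, BCKDK at 34.1 ± 2.6 and BCAT2 at 32.5 ± 2.0. There BCKDK and BCAT2 overlapped, and GLUD1 and PYCR1 were closer than their spread could separate clearly. BCAT1 thus stood below BCAT2 with MZ1 and above it with DMSO, and PYCR1 stood below PYCR3 with MZ1 and above it with DMSO. These orders use the same contrast that chose the genes and are a description. They rest on the union of exons alone, and no order was computed with another gene length. As given below, the length of the longest transcript lowered the BCAT1 share in both groups, so the place of BCAT1 may depend on the length used.

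The make-up of the BCAT transcripts differed between the groups. BCAT1 gave 37.7% and 37.4% of BCAT1 and BCAT2 transcripts per length with MZ1, against 83.6% and 82.3% with DMSO, so BCAT2 was the larger part in both MZ1 libraries and the smaller part in both DMSO libraries. The summed BCAT level was 17.5 ± 0.56 TPM-like units with MZ1 and 191 ± 1.8 with DMSO (SD, n = 2 each), so the larger share of BCAT2 came with a smaller total. With the length of the longest transcript in place of the union of exons, the BCAT1 share was 26.6% with MZ1 and 74.6% with DMSO.

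**Figure D3:**
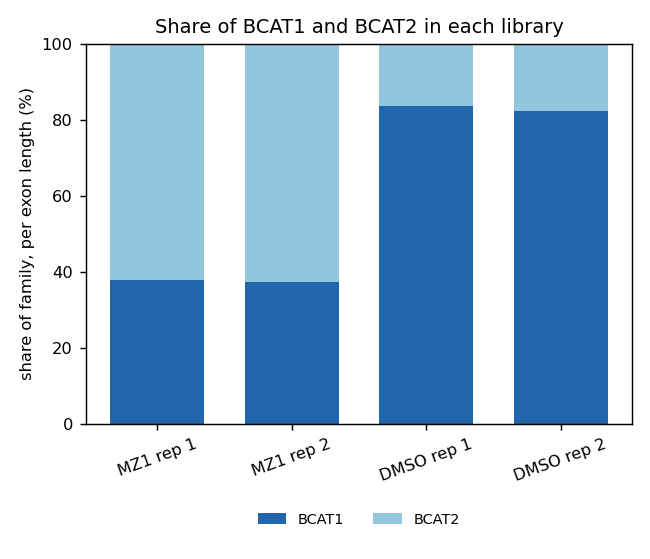
Share of BCAT1 and BCAT2, in percent of their sum per exon length, in each library, with the MZ1 libraries left of the DMSO libraries. BCAT1 is 37.7% and 37.4% in the MZ1 libraries, against 83.6% and 82.3% in the DMSO libraries.

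The genes around these enzymes in the same pathways were taken from lists made by pathway and tested in the same edgeR fit. The lists were drawn up with earlier results of these data known. In lists with more than 9 tested genes, the named ones had the smallest adjusted p in each direction. Their p-values are therefore those of picked genes. The counts in each list stand beside 41.3% of all tested genes called lower and 42.8% called higher. Of the other proline and ornithine genes, 2 of 4 tested were higher and 2 lower. OAT, which links ornithine to the same semialdehyde, fell 1.58-fold (edgeR adjusted p = 1.88e-06). PEPD, which releases proline from dipeptides, rose 1.43-fold (adjusted p = 1e-06), and ALDH4A1, of proline breakdown, was called higher by 0.29 ± 0.11 (adjusted p = 0.0144). The ALDH4A1 call was lost without DMSO replicate 1 (0.13) or MZ1 replicate 1 (0.22), with library totals (0.22), with no count filter (0.22) and in DESeq2 (0.32), and AL080251.1 on the same strand takes in 41.1% of its exonic length.

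Around GLUD1, the genes of glutamine and glutamate metabolism differed in direction. GLUL, glutamine synthetase, was at 1007 and 960 CPM with MZ1, against 481 and 470 CPM with DMSO, and rose 2.07-fold (edgeR adjusted p = 2.2e-18). GPT2 and GOT2, the mitochondrial transaminases that like GLUD1 yield 2-oxoglutarate, fell 10.4-fold and 3.40-fold (edgeR adjusted p = 2.95e-23 and 1.17e-19). GOT1 fell 1.39-fold and GPT 1.62-fold (edgeR adjusted p = 1.99e-05 and 0.00711), and GLS2 was at 0.43 and 0.78 CPM with MZ1 and DMSO (adjusted p = 0.143), and 82.8% of its exonic length also lies in exons of other genes. In all, 2 of 7 tested genes were higher and 4 lower (median log2 fold change −0.69, against 0.05 over all tested genes). The GPT call was lost without MZ1 replicate 1 (−0.49), with upper-quartile scaling (−0.42) and in DESeq2 (−0.66).

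Enzymes that spend the amide nitrogen of glutamine were lower in 7 of 9 tested cases and higher in 2 (median −2.42). PFAS of purine synthesis fell 14.6-fold, to 17.2 ± 0.36 CPM with MZ1 against 251 ± 12 CPM with DMSO (SD, n = 2 each; edgeR adjusted p = 2.63e-25). The pyrimidine genes CTPS2, CAD and CTPS1 fell 6.96-fold, 6.501-fold and 5.75-fold, and the purine genes GMPS and PPAT 5.35-fold and 2.32-fold. NADSYN1, of NAD synthesis, rose 2.09-fold (edgeR adjusted p = 8.49e-14). ASNS, asparagine synthetase, was called higher from few reads, at 4.86 ± 0.43 CPM with MZ1 and 2.28 ± 0.06 CPM with DMSO (edgeR adjusted p = 0.000461), and AC079781.5 on the same strand takes in 44.6% of its exonic length. GFPT1, of hexosamine synthesis, was called lower by −0.21 ± 0.06, a value that turned to 0.057 with upper-quartile scaling and was not called in DESeq2 (−0.19).

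Around BCKDHA and BCKDK, the other parts of the dehydrogenase complex also differed in direction, with 2 of 4 higher and 2 lower (median −0.20). BCKDHB, which pairs with BCKDHA in the decarboxylase, had 3.96 and 4.19 CPM with MZ1, against 13.0 and 13.6 CPM with DMSO, and fell 3.26-fold (edgeR adjusted p = 1.31e-09). DLD, the dehydrogenase shared with the pyruvate complex, fell 1.56-fold (adjusted p = 1.79e-09). PPM1K, the phosphatase that reverses the action of BCKDK, had 160 and 163 CPM with MZ1, against 80.8 and 82.4 CPM with DMSO, and rose 1.98-fold (edgeR adjusted p = 1.52e-15). The kinase BCKDK and its opposing phosphatase PPM1K differed in direction, and with every scaling tried BCKDK was lower and PPM1K higher. BCKDK was chosen with its direction known, so this difference between the kinase and the phosphatase is a description. DBT, the transacylase core, was called higher by 0.25 ± 0.10 (edgeR adjusted p = 0.0231), a call lost without either DMSO replicate (0.22 and 0.19) or MZ1 replicate 1 (0.24), with library totals (0.17), with no count filter (0.17) and in DESeq2 (0.28).

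Past the dehydrogenase, 4 of 17 genes of branched-chain amino acid breakdown were higher and 9 lower (median −0.43), and 4 were not called. HSD17B10 and PCCB, of isoleucine and propionate breakdown, fell 4.17-fold and 4.10-fold (edgeR adjusted p = 2.59e-16 and 5.52e-18). MCCC2, of leucine breakdown, fell 3.13-fold (adjusted p = 4.69e-19). The acyl-CoA dehydrogenase genes ACAD8 and ACADSB rose 2.17-fold and 2.05-fold (edgeR adjusted p = 3.63e-13 and 9.17e-11). In the lists given here, the genes changed in both directions, whereas the 7 enzymes that could be tested were picked with their direction known, so the contrast between them is not a finding.

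**Figure D4:**
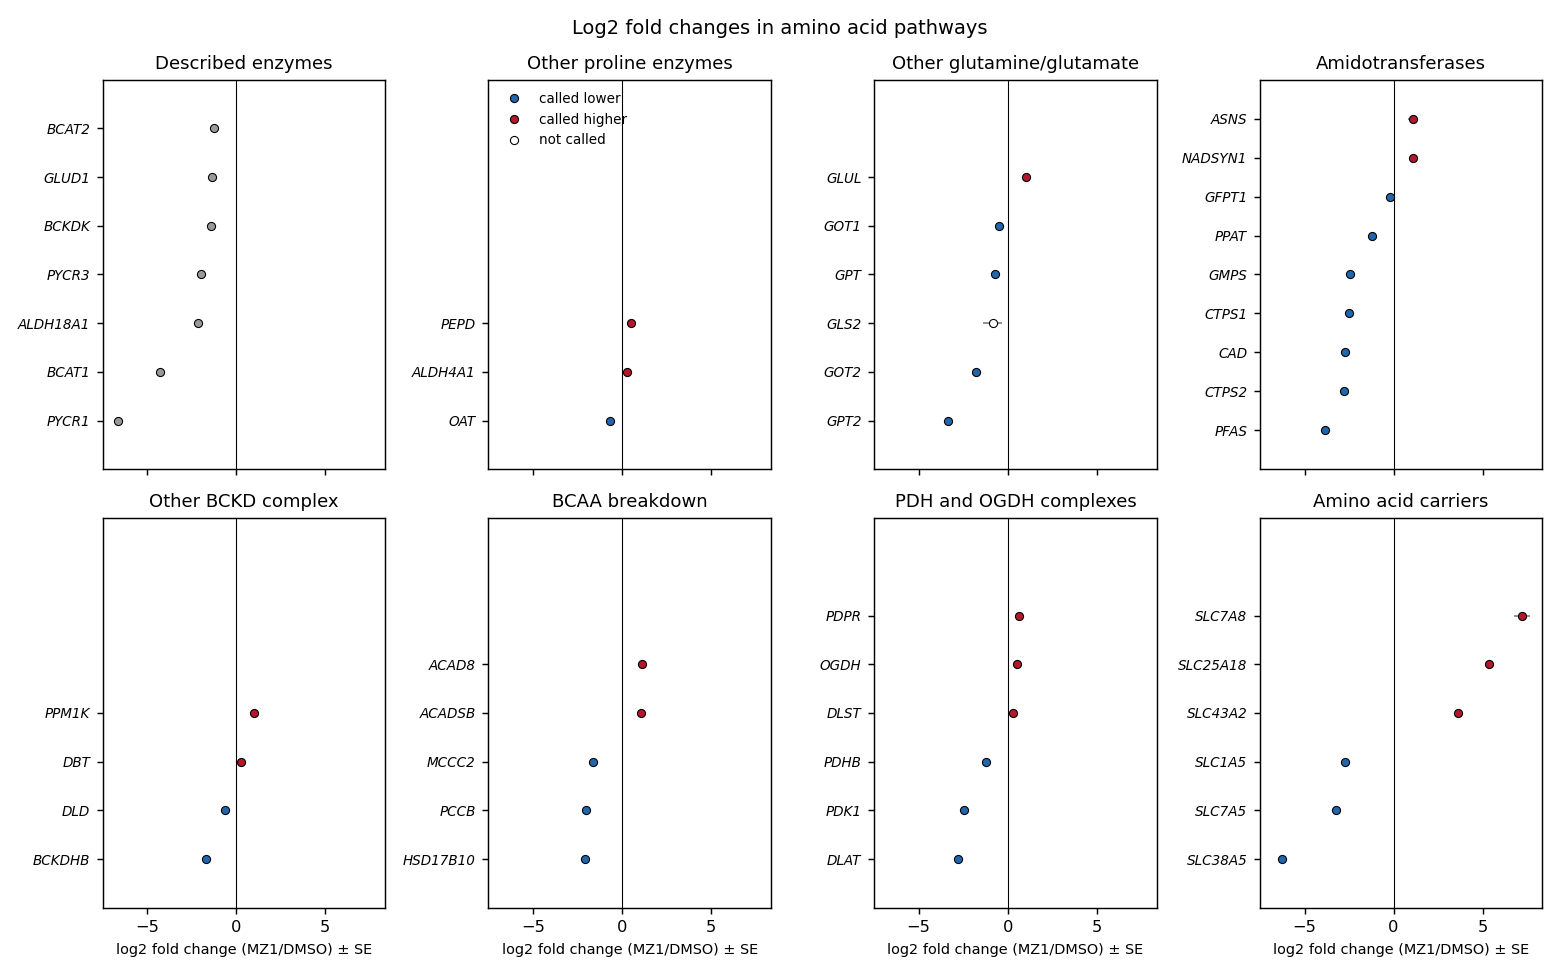
Log2 fold change (MZ1 over DMSO) with its SE for the genes of each list that are named in the text, 1 panel per list, with blue for called lower, red for called higher and white for not called at an adjusted p of 0.05. The described enzymes are in grey with no test, and run between −6.65 and −1.24. The panel of other BCKD genes holds 2 genes on either side of 0.

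PYCR1 had the largest difference, so the 5 protein-coding genes most like it were sought among 9250 whose log2 CPM averaged 3 or more, by the Euclidean distance of log2 CPM centred over the 4 libraries. They were RASL10B (distance 0.06), MYC (0.09), CCDC86 (0.27), IGLL1 (0.49) and SLC38A5 (0.65). MYC had 6.08 and 5.57 CPM with MZ1, against 495 and 522 CPM with DMSO, and RASL10B had 0.78 and 0.65 CPM with MZ1, against 71.1 and 80.9 CPM with DMSO. With 2 groups of 2 libraries, this likeness rests almost entirely on a similar difference between the groups.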

How the data were processed

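RNA-seq of 697 cells was analysed from the deposited counts. RNA was isolated with TRIzol and libraries came from the Illumina TruSeq RNA kit, per the labels' protocols. The authors deposited raw read counts per Ensembl gene, per the file headers. Per the submitters' processing notes, HISAT2 2.2.0 and hg38 were used. How reads were counted, with which annotation and whether by strand, is not given in the sources used here. Reads of overlapping genes, antisense genes and near-identical copies may therefore be split or lost. The labels do not say whether replicates were separate cultures, so p-values cover only the spread between libraries, which may be technical.

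GENCODE release 29 (GRCh38) held all 28814 IDs and gave positions, exon lengths and overlaps, and the gene name table gave 28597 of them a symbol. Genes were kept by filterByExpr (16862), scaled with TMM and tested with the quasi-likelihood test of edgeR 4.0.16 (R 4.3.3) on treatment alone, with Benjamini-Hochberg adjustment over all tested genes. The fit was checked on simulated counts. Each library was treated as 1 sample. Replicates differed by more than sampling noise (chi-square per degree of freedom 2.21 with MZ1 and 2.51 with DMSO), which does not show that they were separate cultures. Alternatives were other scalings and count filters, DESeq2 1.42.0, limma-voom (limma 3.58.1), a replicate block, each library left out, and another gene length. Coding sequences were aligned with Biopython 1.88, and protein sequences were not used here.

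The members and gene lists were chosen with earlier results of these data known. Named genes are the 8 members, all tested genes of lists with at most 9, up to 3 per direction of longer lists by adjusted p, the 5 genes most like PYCR1, and the nearest tested gene on each side of a member. T cell markers, SLC6A15, PRODH and PDK4 were not analysed here, and some items that the rule names, with the shares that need them, are not reported here.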

Additional observations from a re-analysis of the deposited data

How the results depend on the processing

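The 7 tested members were chosen on this contrast, so their values under the 12 alternatives to the model are a description. Their log2 fold changes ranged from −6.76 to −6.38 for PYCR1 and from −1.34 to −0.97 for BCAT2. Upper-quartile scaling raised all log2 fold changes by a median of 0.27 and called 8304 genes higher and 5880 lower, so 58.5% of calls were rises in place of 50.9%. It turned GFPT1 to 0.057 and TCTN3 to 0.022. Of 826 values of 69 genes chosen by the naming rule, 800 kept direction and call, 24 lost the call and 2 changed sign. Among the 826 were 84 values of the members, and all 84 were kept. Other genes were named for a small adjusted p or for likeness to PYCR1, so this count is a description. The genes of proline and ornithine metabolism called higher were 1 with library totals alone and in DESeq2, and 1 to 2 when a library was left out. The other BCKD genes called higher were 1 with library totals, with no count filter and in DESeq2, and 1 to 2 when a library was left out. A fit that leaves out a library has 1 library in that group, whose spread is assumed to be like the other's. The length of the longest transcript moved the BCAT1 share to 26.6% with MZ1 and 74.6% with DMSO, and the BCAT2 share to 73.4% with MZ1 and 25.4% with DMSO. No effect shared by same-numbered replicates was seen (correlation of same-numbered deviations 0.01 over 16862 genes), which does not show how the samples were set up. A replicate block called 7107 genes higher and 6856 lower. Shared exonic length was computed from the annotation and given beside the values, with no refit. With 2 libraries in each group, every call leans on edgeR's estimate of spread, which borrows from all genes. Low counts limit PYCR1 with MZ1. BCKDHA is undecided at its counts, and the part of its overlap with AC011462.1 in them was not tested.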

Other observations

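Genes of carriers that move glutamine, glutamate, proline or branched-chain amino acids across membranes were lower in 10 of 15 tested cases and higher in 5 (median log2 fold change −0.86). Of all tested genes 41.3% were called lower and 42.8% higher, which is the background for this list and the next. Both lists were drawn up with earlier results of these data known. SLC38A5, a glutamine carrier, fell to 1.40 ± 0.48 CPM with MZ1, against 108 ± 0.87 CPM with DMSO (SD, n = 2 each), or 77.0-fold (edgeR adjusted p = 6.45e-24). SLC7A5, the light chain of the large neutral amino acid carrier that imports leucine, fell 9.25-fold, and the glutamine carrier gene SLC1A5 fell 6.51-fold (edgeR adjusted p = 4.75e-26 and 6.46e-23). Other carriers of similar substrates rose. SLC43A2, also a carrier of large neutral amino acids, was at 58.2 ± 0.33 CPM with MZ1 and 4.71 ± 0.16 CPM with DMSO, and rose 12.3-fold (edgeR adjusted p = 3.58e-20). SLC25A18, a mitochondrial glutamate carrier, had 378 and 317 counts with MZ1 and 9 and 11 with DMSO, and rose 40.8-fold (edgeR adjusted p = 1.93e-17). SLC7A8, another light chain of a neutral amino acid carrier, had 154 and 127 counts with MZ1 and 1 and 1 with DMSO, a ratio of summed counts of 159 with an exact 95% interval of 43.5 to 1316 that covers counting error only.

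The pyruvate and oxoglutarate dehydrogenases are built like the branched-chain complex. Of 12 tested genes for their subunits, kinases and phosphatases 8 were lower and 4 higher (median −0.83). DLAT, the core of the pyruvate complex, fell 7.07-fold, PDHB 2.36-fold and the kinase gene PDK1 5.46-fold (edgeR adjusted p = 4.69e-21, 9.47e-15 and 1.01e-15). OGDH and DLST, of the oxoglutarate complex, rose 1.41-fold and 1.25-fold, and PDPR, which regulates the pyruvate dehydrogenase phosphatase, rose 1.56-fold (edgeR adjusted p = 1.13e-09, 1.4e-06 and 1.96e-09).

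The tested genes nearest to the members were also read. EXOSC5, which overlaps BCKDHA on the opposite strand by 20 bases of exon, fell to 1.07 ± 0.08 CPM with MZ1, against 39.3 ± 1.1 CPM with DMSO, a log2 fold change of −5.18 ± 0.17 (edgeR adjusted p = 1.74e-19). SHLD2, which overlaps the start of GLUD1 on the opposite strand, fell to 15.9 ± 1.3 CPM with MZ1, against 51.7 ± 3.0 CPM with DMSO, by 1.70 on the log2 scale (adjusted p = 7.06e-15 in edgeR). The other neighbours are given by their log2 fold change. Next to PYCR1, MILIP, annotated as antisense but 1630 bases away from PYCR1, was lower by −4.11. That value rests on 7 and 0 counts with MZ1, against 68 and 80 with DMSO. ASPSCR1, on the other side of PYCR1, was lower by −2.22. Next to PYCR3, TIGD5 was lower by −0.94 and GFUS by −0.95, against −2.0 for PYCR3 itself. Around BCAT1, LINC02909 was lower by −1.11, whereas ETNK1, 2119356 bases away, was higher by 0.26. Beside BCKDK, KAT8 was lower by −0.73 and VKORC1 by −1.44. Beside BCAT2, HSD17B14 was lower by −2.11 and RASIP1 by −0.94, a call lost for RASIP1 without MZ1 replicate 1 (−0.72) and in DESeq2 (−0.92). Beside ALDH18A1, TCTN3 was called lower by −0.25, but turned to 0.022 with upper-quartile scaling and was not called without MZ1 replicate 2 (−0.23) or in DESeq2 (−0.22). DMAC2, past BCKDHA, was lower by −1.21. WAPL-DT, 525384 bases from GLUD1, was called higher by 0.65, a call lost without DMSO replicate 1 (0.57) or MZ1 replicate 2 (0.24), with no count filter (0.57), in DESeq2 (0.68) and in limma-voom (0.60).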
